A study of Mus musculus with 18 samples.

Results

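The 41 genes described here are interferon-stimulated genes measured in mouse embryonic fibroblasts during reprogramming with neuronal transcription factors. They were chosen by gene symbol, with earlier results of these data known. All 41 were found among the 35734 genes of the authors' deposited table, which compares fibroblasts with and without added Ikzf1 and Ikzf4. The table gives an adjusted p-value for 16757 genes, including every one of the 41. Grouped by role, the genes are 7 sensors, 11 signalling factors, 5 genes of the ISG15 conjugation system and 18 effectors. The sensor group holds genes for nucleic acid sensors and also Adar, an RNA-editing enzyme.

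Both groups were fibroblasts of the R26-M2rtTA line on the C57BL/6 strain, which carries a doxycycline-responsive transactivator, and both received lentiviral vectors for Brn2 (gene symbol Pou3f2) and Myt1l. One group also received Ikzf1 and Ikzf4, zinc finger factors of the Ikaros family. Poly(A) RNA was sequenced after 48 h of doxycycline in 3 libraries per group. Both groups thus share the transactivator line, infection with the Brn2 and Myt1l vectors, and doxycycline. Whether the total viral dose was equal in both groups was not examined, and uninfected fibroblasts were not analysed here. The labels do not say whether the 3 libraries of a group came from separate cultures or animals, so the p-values measure only the spread between these libraries.

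Type I interferons bind a receptor on the cell surface and activate the kinases Jak1 and Tyk2, which phosphorylate STAT proteins. Stat2 and Irf9 are subunits of a complex that binds the interferon-stimulated response element, or ISRE, in the promoters of its target genes. The targets include sensors that detect viral RNA or DNA, the signalling factors themselves, and effectors that block viral entry, translation or release. Fibroblasts are a classical source of interferon beta and express many of these genes at a basal level.

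The 6 libraries held between 34966344 and 44270426 estimated reads. The added factors followed the labels in the authors' deposited table, where Ikzf4 was higher by 8.54 and Ikzf1 by 7.76 on the log2 scale. Myt1l was also higher with Ikzf1 and Ikzf4, by 0.50 on the log2 scale (SE 0.17, DESeq2 adjusted p = 0.0157), whereas Pou3f2 differed by -0.05 (adjusted p = 0.689). All 14 fibroblast markers were detected, with mean normalised counts from 269 to 228033. By DESeq2, 9 of them were lower with Ikzf1 and Ikzf4 (64.3%, against 15.4% of all genes tested). The median log2 fold change of the 14 was -0.38, and Dcn, which encodes the matrix proteoglycan decorin, was at -1.77. Macrophage markers were present too: none of 12 was at 0, their mean normalised counts ranged from 115 to 13089, and they summed to 22638. By DESeq2, 0 of the 12 macrophage markers passed an adjusted p of 0.05 and 1 had an unadjusted p under 0.05. Their log2 fold changes lay between -0.27 and 0.15, with a median of -0.01. None of 8 endothelial markers passed by DESeq2, and 0 had an unadjusted p under 0.05. Of 8 epithelial markers 4 had an adjusted p, and 2 of these were higher (50%, against 15.3% of all genes tested), Krt19 by 0.61 and Epcam by 0.64. Of 8 lymphocyte markers 3 were listed at 0 and 1 had an adjusted p, so that list was hardly tested. The deposited means run over both groups, so a summed marker level per group was not computed.

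With Ikzf1 and Ikzf4, 24 of the 41 interferon-stimulated genes were lower, 2 were higher and 15 did not pass an adjusted p of 0.05 in the authors' deposited table. Among all genes tested by DESeq2, 15.4% were lower, 15.3% were higher and 30.6% passed in either direction. The lower share of the interferon-stimulated genes was 58.5%, in a list chosen with earlier results of these data known. Their median log2 fold change was -0.49, against -0.0004 over all genes tested, and 36 of the 41 had a value below 0. Of the 24 lower genes, 20 differed by at least 0.5 on the log2 scale, and 4 (Parp10, Isg15, Rtp4 and Uba7) by at least 1. Over all genes tested, 4.92% were lower by at least 0.5 and 0.913% by at least 1. In bulk RNA, fewer cells of a type and less RNA per cell cannot be told apart. The part that fibroblast, epithelial or macrophage content had in these differences was not tested. Values per library were not analysed here at the level of genes, so each gene is described by its fitted log2 fold change, its standard error (SE) and a 95% interval.

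**Figure D1:**
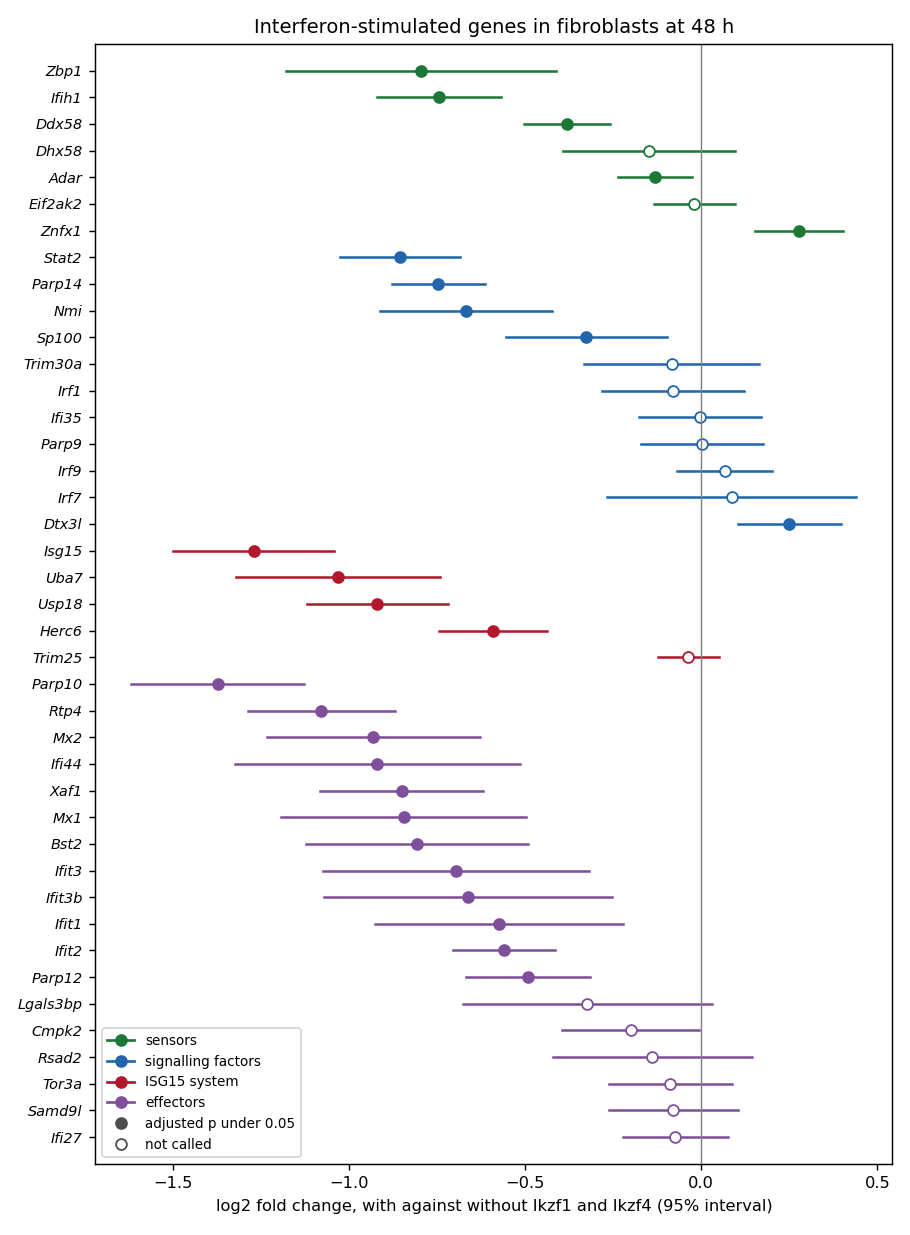
Log2 fold change of each of the 41 genes (x axis, with minus without Ikzf1 and Ikzf4), by role, with points for the fitted value, bars for the 95% interval over 3 libraries per group, and filled points for a DESeq2 adjusted p under 0.05. The filled points are 24 on the lower side and 2 on the higher side, Znfx1 and Dtx3l.

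The ISRE is the element that the complex of Stat2 and Irf9 binds, so the promoters that hold its core are shown first. Promoter sequences came from RefSeq (GRCm38.p6) and spanned 250 bases before to 50 bases after a gene's start, and 30 of the 41 genes matched, with 38 promoters because some have several start sites. The core searched was GAAA, any 2 bases and GAAA again, on both strands, and overlapping matches were each counted. Only exact matches were taken, so near matches are not in these counts. It was found at any start site of 11 of the 30 genes (36.7%) and of 1079 of all 27025 genes (3.99%). By promoter, it was in 12 of the 38 (31.6%) and in 1131 of all 32851 (3.44%). The sequences are given 5′ to 3′ on the gene's strand, with the cores in capitals, and a core on the opposite strand reads TTTC, any 2 bases and TTTC.
Isg15, chr4:156200850-156200909, minus strand: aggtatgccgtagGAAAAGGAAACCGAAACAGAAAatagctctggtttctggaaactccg
Stat2, chr10:128270251-128270310, plus strand: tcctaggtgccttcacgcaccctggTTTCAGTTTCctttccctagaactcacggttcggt
Bst2, chr8:71537562-71537621, minus strand: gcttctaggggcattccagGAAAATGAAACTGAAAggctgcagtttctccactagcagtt
Ifit1, chr19:34640779-34640838, plus strand: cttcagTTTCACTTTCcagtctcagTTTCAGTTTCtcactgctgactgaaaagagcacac
Ifit3, chr19:34583382-34583441, plus strand: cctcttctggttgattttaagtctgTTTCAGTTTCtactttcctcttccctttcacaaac
Ifit3b, chr19:34607778-34607837, plus strand: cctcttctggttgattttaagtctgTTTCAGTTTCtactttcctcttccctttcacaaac
Ifih1, chr2:62646206-62646235, minus strand: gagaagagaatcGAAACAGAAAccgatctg
Ddx58, chr4:40239804-40239833, minus strand: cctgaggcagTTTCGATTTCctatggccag
Rsad2, chr12:26456538-26456597, minus strand: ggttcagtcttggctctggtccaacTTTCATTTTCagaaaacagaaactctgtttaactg
Eif2ak2, chr17:78882535-78882564, minus strand: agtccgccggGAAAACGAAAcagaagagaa
Trim30a, chr7:104465195-104465254, minus strand: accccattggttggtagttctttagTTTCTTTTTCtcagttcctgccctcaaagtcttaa
The first 8 of these genes were lower with Ikzf1 and Ikzf4, and the last 3 did not pass the test. A window at 1 start site per gene is given, so another Trim30a promoter with a core is not shown. The promoters of Ifit3 and Ifit3b each hold 2 cores, of which the window shows 1. In Ifih1, Ddx58 and Eif2ak2 the core lies after the start site. In Isg15, 3 overlapping cores form 1 run that begins 78 bases before the start site. The windows of Ifit3 and Ifit3b were identical at 60 of 60 bases.

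Of the 11 genes with a core, 8 were lower and 0 were higher in the authors' deposited table by DESeq2, with a median log2 fold change of -0.66. Of the 19 genes whose promoter held no exact core, 9 were lower and 2 were higher, with a median of -0.20. The difference between these sets was not tested. Among the 464 other genes with a core and an adjusted p, 21.1% were lower and 14.7% were higher, with a median of -0.04. A match describes the letters in the window and says nothing of binding.

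**Figure D2:**
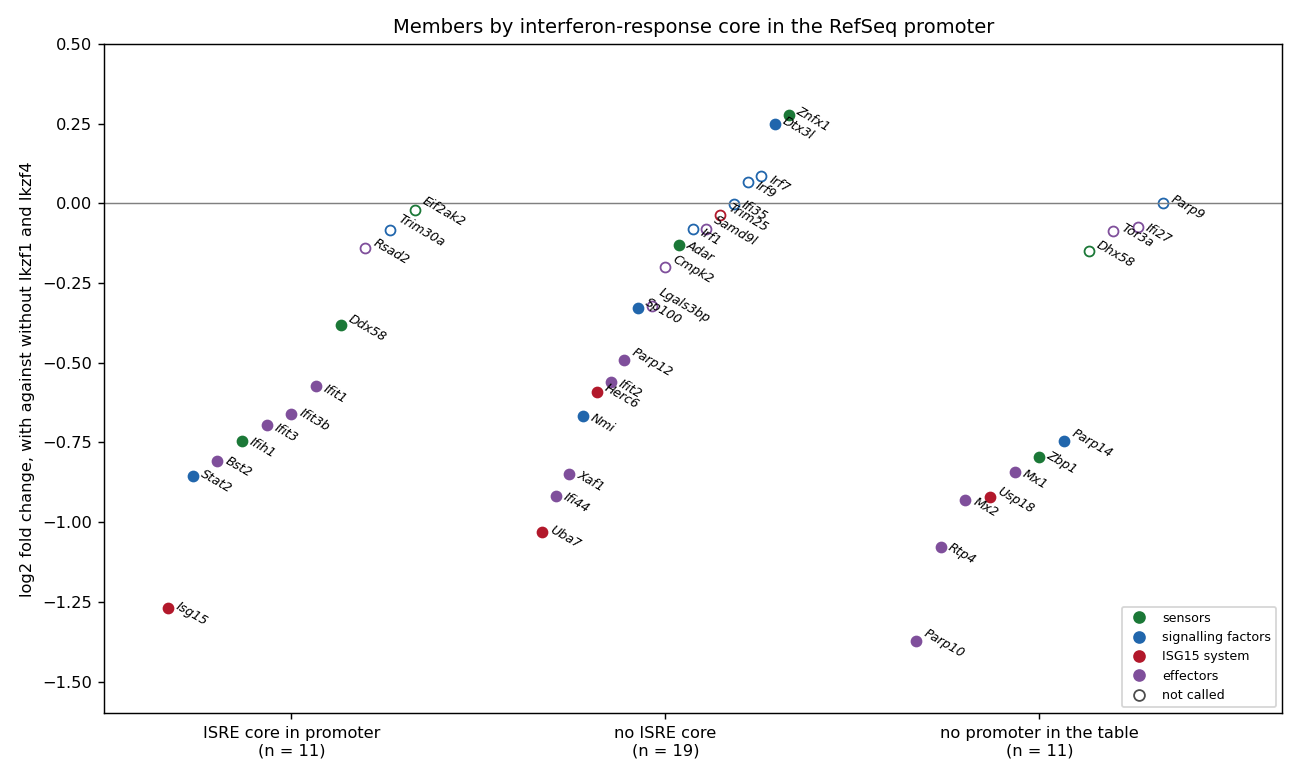
Log2 fold change of each gene (y axis, with minus without Ikzf1 and Ikzf4) for the 11 genes with an ISRE core in the promoter, the 19 without and the 11 with no promoter in the table. Points are genes, and the medians of the first and second sets are -0.66 and -0.20.

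The longer upstream sequences of 3 genes are shown because core and call differed among them. Isg15 has the core and was lower, Rsad2 has the core and did not pass the test, and Uba7 has no exact core and was lower. The Uba7 run does hold a near match, tttcactttt, which the exact search did not count. Each run is the 250 bases before the start site.
Isg15, chr4:156200819-156201068, minus strand: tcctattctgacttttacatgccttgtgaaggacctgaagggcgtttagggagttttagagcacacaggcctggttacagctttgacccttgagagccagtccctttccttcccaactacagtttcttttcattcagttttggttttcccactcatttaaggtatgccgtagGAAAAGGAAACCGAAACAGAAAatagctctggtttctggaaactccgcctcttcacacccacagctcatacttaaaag
Rsad2, chr12:26456453-26456702, minus strand: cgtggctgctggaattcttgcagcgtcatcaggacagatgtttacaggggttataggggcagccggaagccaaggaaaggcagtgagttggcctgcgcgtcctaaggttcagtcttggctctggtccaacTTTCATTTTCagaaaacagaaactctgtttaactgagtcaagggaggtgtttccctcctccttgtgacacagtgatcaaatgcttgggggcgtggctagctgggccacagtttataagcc
Uba7, chr9:107975317-107975566, plus strand: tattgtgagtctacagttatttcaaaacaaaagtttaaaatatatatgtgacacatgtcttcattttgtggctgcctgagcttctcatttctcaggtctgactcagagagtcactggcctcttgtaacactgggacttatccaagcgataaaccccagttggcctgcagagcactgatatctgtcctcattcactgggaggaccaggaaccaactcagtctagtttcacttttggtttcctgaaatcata

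Other motifs were searched in the promoters of the same 30 genes. The gamma-activated site TTCNNNGAA was at any start site of 6 of the 30 genes (20.0%) and of 9.55% of all genes, and 3 of the 6 were lower. Among other tested genes with that site, 17.9% were lower and 14.7% were higher. The Ikaros core TGGGAA was at any start site of 11 of the 30 genes (36.7%) and of 28.3% of all genes. Of those 11 genes, 5 were lower and 1 was higher in the authors' deposited table, with a median log2 fold change of -0.08. Of the 19 without the Ikaros core, 12 were lower and 1 was higher, with a median of -0.49, and the difference was not tested. Among other tested genes with the Ikaros core, 16.9% were lower and 14.3% were higher.

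Among the sensors, 4 of 7 were lower (57.1%, against 15.4% of all genes tested) and 1 was higher (14.3%, against 15.3%). The other 2 did not pass, and the median log2 fold change of the 7 was -0.15. Ifih1 encodes MDA5, which detects long double-stranded RNA, and it fell by 0.75 on the log2 scale in the authors' deposited table (SE 0.09, 95% interval -0.92 to -0.57, DESeq2 adjusted p = 4.41e-15). Ddx58 encodes RIG-I, a sensor of RNA with a 5′ triphosphate, and its log2 fold change there was -0.38 (SE 0.06, 95% interval -0.50 to -0.26, DESeq2 adjusted p = 1.62e-08). The intervals of these 2 RNA sensors did not overlap. The third member of that helicase family, Dhx58 (LGP2), lacks the signalling domain of the other two. Its log2 fold change in the authors' deposited table was -0.15, with a 95% interval from -0.39 to 0.10 (DESeq2 adjusted p = 0.409).

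Zbp1, a sensor of Z-form nucleic acid that can start necroptosis, was 1.74-fold lower (log2 fold change -0.80, SE 0.20, adjusted p = 0.000348 by DESeq2 per the authors' deposited table). It had the lowest mean normalised count of the 41 genes, 87.7. Adar, which edits adenosine to inosine in double-stranded RNA, was 1.10-fold lower (log2 fold change -0.13, SE 0.05, adjusted p = 0.0464 by DESeq2 per the authors' deposited table). Adjusting the deposited DESeq2 p-values over all genes with one gave 0.0684 for Adar, which ends that call. Eif2ak2 encodes PKR, the kinase that halts translation when it binds double-stranded RNA. Its log2 fold change in the authors' deposited table was -0.02, with a narrow 95% interval from -0.13 to 0.10. Znfx1, a helicase-domain protein that binds viral RNA at mitochondria, was 1.21-fold higher (log2 fold change 0.28, SE 0.06, adjusted p = 0.000117 by DESeq2 per the authors' deposited table).

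Among the signalling factors, 4 of 11 were lower (36.4%, against 15.4% of all genes tested) and 1 was higher (9.09%, against 15.3%). The other 6 did not pass, and the median log2 fold change of the 11 was -0.08. Stat2, the subunit that gives the interferon-activated complex its transactivation domain, was 1.81-fold lower in the authors' deposited table (log2 fold change -0.85, SE 0.09, 95% interval -1.03 to -0.68, DESeq2 adjusted p = 6.78e-21). Its DNA-binding partner Irf9 was at 0.07, with a 95% interval from -0.07 to 0.20 (adjusted p = 0.527 by DESeq2 per the authors' deposited table). The intervals of Stat2 and Irf9 therefore lay apart.

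Irf7, the factor that amplifies interferon alpha production, was at 0.09 with a wide 95% interval from -0.27 to 0.44 (adjusted p = 0.784 by DESeq2 per the authors' deposited table). Irf1, an activator induced by both interferon types, was at -0.08 in that table, with a 95% interval from -0.28 to 0.12. The Irf7 interval reaches past 0.25 on the log2 scale in both directions, and that of Irf1 only on the lower side.

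Parp14, Dtx3l and Parp9 are neighbouring genes with different values. Parp14, a mono-ADP-ribosyltransferase, was 1.68-fold lower in the authors' deposited table (log2 fold change -0.75, SE 0.07, DESeq2 adjusted p = 2.83e-26). Dtx3l, a ubiquitin ligase, was 1.19-fold higher there (log2 fold change 0.25, SE 0.07, DESeq2 adjusted p = 0.00376). Parp9, the partner of Dtx3l, was at 0.0015, with a 95% interval from -0.17 to 0.18 in the authors' deposited table. Parp9 and Dtx3l overlap each other in the RefSeq annotation. The sources used here do not say whether the counting used strand, so reads of these 2 genes may not be separable. The same limit may hold for the 17 genes among the 41 whose span overlaps that of another annotated gene. Only whole gene spans were compared, so whether exons overlap was not examined. Of the 17 genes, Adar, Dtx3l, Herc6, Ifih1, Ifit1, Ifit3b, Isg15, Rtp4, Stat2, Usp18 and Znfx1 were lower or higher.

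Of the other signalling factors, Nmi, which binds STAT proteins, was 1.59-fold lower (log2 fold change -0.67, SE 0.12, adjusted p = 1.01e-06 by DESeq2 per the authors' deposited table). Ifi35, the partner of Nmi, was at -0.0035, with a 95% interval from -0.18 to 0.17 in the same authors' deposited table. Sp100, a component of PML nuclear bodies, was 1.25-fold lower (log2 fold change -0.33, SE 0.12, adjusted p = 0.0201 by DESeq2 per the authors' deposited table), which does not pass a threshold of 0.01. Trim30a, a tripartite-motif protein that restrains Toll-like receptor signalling, was at -0.08, with a 95% interval from -0.33 to 0.16 in the authors' deposited table. Sp100 and Trim30a have close relatives in the mouse genome, so their counts may share reads with them.

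ISG15 is a ubiquitin-like protein that is joined to other proteins by an activating enzyme, a conjugating enzyme and a ligase, and is removed by a protease. In this system 4 of 5 genes were lower (80%, against 15.4% of all genes tested) and none was higher. All 4 had 95% intervals at or below -0.44, and the median log2 fold change of the 5 was -0.92. The modifier itself, Isg15, was 2.41-fold lower in the authors' deposited table (log2 fold change -1.27, SE 0.12, 95% interval -1.50 to -1.04, DESeq2 adjusted p = 7.08e-26). Uba7, the activating enzyme, was 2.04-fold lower there (log2 fold change -1.03, SE 0.15, DESeq2 adjusted p = 8.26e-11). Herc6, the main ISG15 ligase of the mouse, was 1.51-fold lower (log2 fold change -0.59, SE 0.08, adjusted p = 1.09e-12 by DESeq2 per the authors' deposited table). Usp18, which removes ISG15 and also restrains the interferon receptor, was 1.89-fold lower (log2 fold change -0.92, SE 0.10, adjusted p = 1.41e-17 by DESeq2 per the authors' deposited table). Thus the modifier, its activating enzyme, its ligase and its protease were lower, and a conjugating enzyme is not among the 41 genes. Trim25, a ubiquitin ligase that acts on RIG-I, was at -0.04, with a 95% interval from -0.12 to 0.05 in the authors' deposited table.

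Among the effectors, 12 of 18 were lower by DESeq2 (66.7%, against 15.4% of all genes tested), none was higher and 6 did not pass. The median log2 fold change of the 18 was -0.62, and 13 of them had an unadjusted p under 0.05. Parp10, a mono-ADP-ribosyltransferase, had the lowest value of the 41 genes in the authors' deposited table, 2.59-fold lower (log2 fold change -1.37, SE 0.13, 95% interval -1.62 to -1.13, DESeq2 adjusted p = 6.04e-26). Rtp4, a receptor transporter protein with antiviral activity, was 2.11-fold lower there (log2 fold change -1.08, SE 0.11, DESeq2 adjusted p = 3.39e-22). Parp12, another member of the ADP-ribosyltransferase family, was 1.41-fold lower (log2 fold change -0.49, SE 0.09, adjusted p = 5.65e-07 by DESeq2 per the authors' deposited table). Of the 4 Parp genes among the 41, Parp10, Parp12 and Parp14 were lower and Parp9 did not pass.

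The dynamin-like GTPases Mx1 and Mx2, which block the replication of RNA viruses, were both lower in the authors' deposited table. Mx2 was 1.91-fold lower (log2 fold change -0.93, SE 0.15, adjusted p = 2.75e-08 by DESeq2 per the authors' deposited table). Mx1 was 1.80-fold lower (log2 fold change -0.84, SE 0.18, adjusted p = 1.92e-05 by DESeq2 per the authors' deposited table). RefSeq lists both as transcribed pseudogenes in the C57BL/6J genome, so these values describe transcripts. The 2 genes are neighbours with similar sequence, and reads may be shared between them.

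The Ifit genes encode antiviral proteins with tetratricopeptide repeats, of which Ifit1 binds RNA that lacks the cap methylation of the host, and 4 of them lie in 1 cluster. In the authors' deposited table, Ifit2 was 1.47-fold lower with the smallest error of the 4 (log2 fold change -0.56, SE 0.07, DESeq2 adjusted p = 7.57e-13). Ifit3 was 1.62-fold lower (SE 0.19 on the log2 scale, adjusted p = 0.00174 by DESeq2 per the authors' deposited table). Ifit3b was 1.58-fold lower (SE 0.21, adjusted p = 0.00715 by DESeq2 per the authors' deposited table), and Ifit1 was 1.49-fold lower (SE 0.18, adjusted p = 0.00674). The 4 log2 fold changes lay between -0.70 and -0.56, closer together than the errors of Ifit1, Ifit3 and Ifit3b. Ifit3 and Ifit3b are near copies, and their separate values are uncertain. Their promoters matched at 75% of 268 bases when set side by side without gaps, and a C run of unequal length lowers that share. Ifit1 and Ifit3b also overlap Ifit1bl1, which was higher by 0.77 (SE 0.18, adjusted p = 9.57e-05 by DESeq2 per the authors' deposited table).

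Bst2 encodes tetherin, which holds budding virions at the cell surface. It was 1.75-fold lower in the authors' deposited table (log2 fold change -0.81, SE 0.16, DESeq2 adjusted p = 6.27e-06). Xaf1, an antagonist of the apoptosis inhibitor XIAP, was 1.80-fold lower (log2 fold change -0.85, SE 0.12, adjusted p = 1.51e-11 by DESeq2 per the authors' deposited table). Ifi44 was 1.89-fold lower (log2 fold change -0.92, SE 0.21, adjusted p = 7.08e-05 by DESeq2 per the authors' deposited table).

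The 6 effectors that did not pass all had values below 0. Rsad2 encodes viperin, which makes a chain-terminating nucleotide, and Cmpk2, its neighbour, is a mitochondrial nucleotide kinase. Rsad2 was at -0.14, with a 95% interval from -0.42 to 0.14 (adjusted p = 0.523 by DESeq2 per the authors' deposited table). Cmpk2 was at -0.20 (SE 0.10) and was the 1 gene of the 15 with an unadjusted p under 0.05, at 0.0429 (adjusted p = 0.115 by DESeq2 per the authors' deposited table). Lgals3bp, a secreted glycoprotein that binds galectin-3, was at -0.32 with an interval from -0.68 to 0.03 in the authors' deposited table. Tor3a, Samd9l, a translation inhibitor, and Ifi27 lay between -0.09 and -0.07 in that table.

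Failing the test did not mean the same for all 15 genes. For 6 of them, Eif2ak2, Ifi35, Parp9, Irf9, Trim25 and Ifi27, the 95% interval lay within 0.25 of 0 on the log2 scale. The intervals of the other 9 reached below -0.25.

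**Figure D3:**
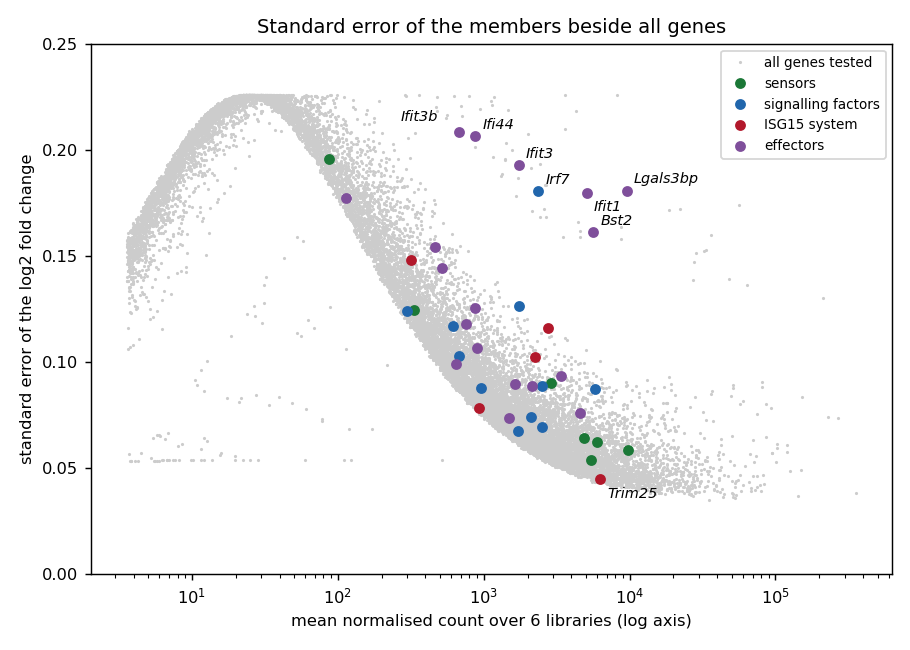
Standard error of the log2 fold change (y axis) against mean normalised count over all 6 libraries (x axis, log scale) for all genes and for the 41 interferon-stimulated genes. Lgals3bp, Ifit1 and Bst2 lie highest above genes of like mean, and Trim25 lies lowest.

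The errors themselves differed from those of other genes at the same level. In the authors' deposited table, 31 of the 41 genes had a larger standard error than the median gene with a mean within 1.5-fold, and 19 lay in the top 10%. The ratio of a gene's error to that median ran from 0.817 for Trim25 to 3.52 for Lgals3bp, with a median of 1.22. It was 3.18 for Ifit1, 2.91 for Bst2, 2.73 for Irf7, 2.67 for Ifit3, 2.28 for Ifi44 and 2.10 for Ifit3b. These 6 genes and Lgals3bp were thus measured with at least 2 times the usual error. Ifit2 (0.972), Parp14 (0.934) and Herc6 (0.885) had errors near or below the usual one. Which libraries carried the added spread was not analysed here.

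Upstream of these genes, the interferon ligands were near or at the bottom of the range. In the authors' deposited table, 8 of 11 ligand genes were listed at 0, and Ifnb1 had a mean normalised count of 6.80 and a log2 fold change of -0.07 (DESeq2 adjusted p = 0.807). Of 6 receptor genes, 1 was lower and 1 was higher (16.7% each), close to the 15.4% and 15.3% of all genes tested. Ifnar1, a subunit of the type I receptor, fell by 0.17 (SE 0.05, DESeq2 adjusted p = 0.00457), and Ifngr1, of the type II receptor, was higher by 0.18 (SE 0.06, adjusted p = 0.0115), both on the log2 scale in the authors' deposited table. A list of 10 further genes held Janus kinases, STATs, interferon regulatory factors and the Irf2-binding proteins Irf2bp1 and Irf2bp2. None of the 10 passed by DESeq2, and 2 had an unadjusted p under 0.05. The median log2 fold change of the 10 was -0.10.

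Of 10 adaptors and further sensors, 3 were lower (30%) and 1 was higher (10%), against 15.4% and 15.3% of all genes tested. Tlr3, the endosomal receptor for double-stranded RNA, was at -0.82 in the authors' deposited table (SE 0.12, DESeq2 adjusted p = 7.14e-10). Sting1, the adaptor for cytosolic DNA, was at -0.42 (SE 0.13, adjusted p = 0.00489 by DESeq2 per the authors' deposited table), and Ikbke, a kinase that activates Irf3, was at -0.41 (SE 0.11, adjusted p = 0.00115). Ticam1, the adaptor of Tlr3, was higher by 0.25 (SE 0.09, adjusted p = 0.0188 by DESeq2 per the authors' deposited table). Among 8 negative regulators, 1 was lower (12.5%) and 2 were higher (25%), against 15.4% and 15.3% of all genes tested. Samhd1, which degrades nucleotides, was at -0.43 (SE 0.07, adjusted p = 2.17e-08 by DESeq2 per the authors' deposited table), while the inhibitors Pias1 and Ptpn2 were higher by 0.20 and 0.26.

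A further 40 interferon-stimulated genes outside the 41 gave 22 lower (55%, against 15.4% of all genes tested) and 2 higher (5%, against 15.3%). The median log2 fold change of the 40 was -0.29. That list was also chosen with earlier results of these data known and is not an independent set. The 3 with the smallest p-values in the authors' deposited table were Ifitm2, Oasl2 and Gbp3, at -1.19, -1.94 and -2.19. Oasl1, which represses Irf7 translation, was higher by 0.81 (SE 0.21, adjusted p = 0.000635 by DESeq2 per the authors' deposited table), and Helz2 was higher by 0.21 (SE 0.08, adjusted p = 0.0372).

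**Figure D4:**
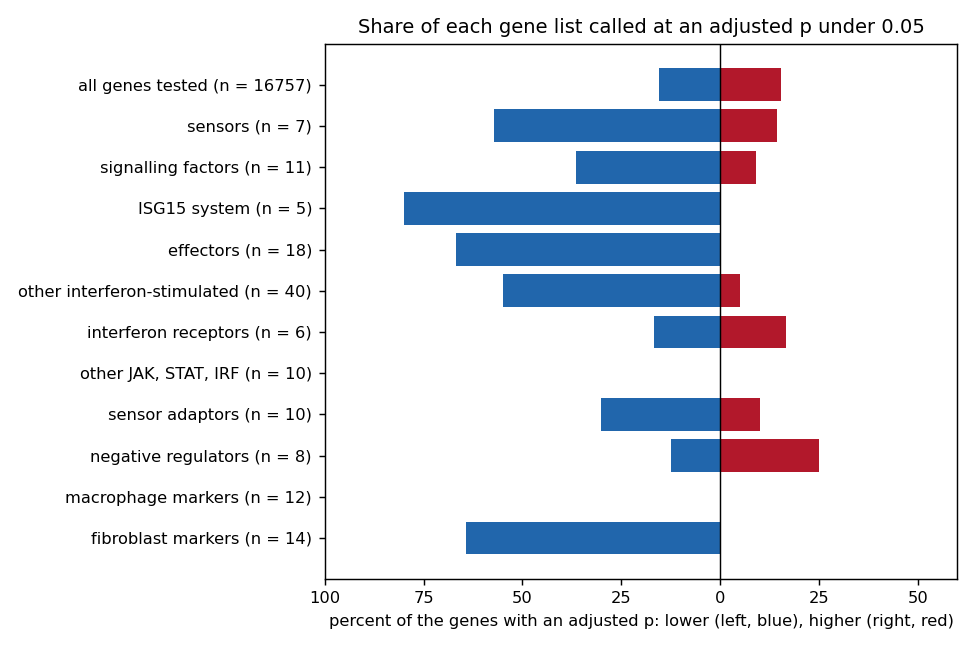
Percent of each gene list that was lower or higher with Ikzf1 and Ikzf4 (DESeq2 adjusted p under 0.05). Bars are all genes tested, the roles among the 41 genes and interferon-stimulated genes outside the 41. Further bars are receptors, other JAK, STAT and IRF genes (with Irf2bp1 and Irf2bp2), sensor adaptors, negative regulators, and macrophage and fibroblast markers. Lower genes make up 58.5% of the 41, which have no bar of their own, and 15.4% of all genes.

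Chromatin at the start sites of these genes could be read in another tissue of the series by 10x Multiome, which records accessible DNA fragments by cell barcode. The control library was retina with Müller glia as the labelled cell type, from the GLAST-CRE ERT2;RosaYFP line with mCherry. For the Ikzf1 and Ikzf4 library the tissue, cell type, line and condition labels only repeat its title, and tamoxifen is named for both libraries. With 1 library per group there is no test, and each ratio of fragments per library total carries an exact 95% interval for counting error only. The control held 52119123 fragments and the other library 29358834, and 3 barcodes with at least 3000 fragments were common to both. Start sites were at hand for 30 of the 41 genes. A gene with several start sites was read at the site with most fragments over both libraries. Within 500 bases of the start site, 28 of the 30 genes had at least 50 fragments over both libraries. Their median ratio of Ikzf1 and Ikzf4 to control was 1.14, ranging from 0.518 to 1.63, against 1.18 over 16415 genes.

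Samd9l (0.518, 95% interval 0.264 to 0.955) and Herc6 (0.571, 0.398 to 0.804) were lower by at least 1.5-fold, as were 4.24% of all genes. The Samd9l ratio rested on 48 control fragments and 14 in the other library, near the minimum of 50 over both. Irf7 was higher (1.63, 1.25 to 2.12), as were 11.3% of all genes. With barcodes of at least 3000 fragments alone, 5 of 23 genes were lower and 0 were higher by that fold, against 7.32% and 2.25% of all genes, so these calls depend on which barcodes enter. Marker windows of other cell types varied in the same fragments. The median ratio was 0.722 over 5 macrophage markers, from Ptprc at 0.328 (0.161 to 0.612) to Fcer1g at 1.86 (1.20 to 2.87). Over 5 epithelial markers it was 1.74, from Epcam at 0.789 (0.409 to 1.46) to Cldn4 at 2.04 (1.31 to 3.17). It was 0.924 over 4 endothelial and 0.937 over 5 fibroblast markers, and in neither list did an interval exclude 1. The part of cell composition in the ratios was not tested. Isg15 had a ratio of 0.976 with an interval from 0.553 to 1.68, resting on 40 and 22 fragments. Stat2 was at 1.27 (1.14 to 1.43), close to the ratio of all genes. Tissue and assay differ from the fibroblast RNA, and the time of these libraries is uncertain because a label and a file header differ, so the values are given without a comparison.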

How the data were processed

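Gene-level values came from the authors' deposited table of their own DESeq2 comparison of fibroblasts with and without Ikzf1 and Ikzf4 (3 libraries each). It gives a mean normalised count (a signal not scaled by gene length), a log2 fold change, its standard error, a p-value and an adjusted p-value, all deposited by the authors. The deposited Wald score was checked to equal the fold change divided by its error. The log2 fold changes of low-count genes lie near 0 with small errors (median SE 0.0494 at a mean under 2), so folds may be shrunk. Depth came from the deposited estimated counts per transcript, made with salmon per the labels (117135 transcripts). The gene annotation was not given in the sources used here. Fragment counts came from files made by the authors with cellranger-arc 2.0.1, per the file headers. From these, 95% intervals, list counts, medians, motif matches (both strands) and fragment ratios with exact Clopper-Pearson intervals were computed in Python 3.11.15 with pandas 2.3.3, NumPy 2.4.6 and SciPy 1.17.1, checked on simulated data. A gene was called lower or higher at an adjusted p under 0.05. Outside the 41 genes, the text names at most the 3 of a list with the smallest p-values and any that moved the opposite way. The members and lists were chosen with earlier results of these data known. ATAC-seq peak lists and gene values per library were not used here. 1 gene that this rule would name is not reported here.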

Additional observations from a re-analysis of the deposited data

How the results depend on the processing

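Of the 41 genes, 24 were lower and 2 were higher. Adjusting p-values over all genes with a p-value gave 23 lower, without Adar (9.57% of all genes), a threshold of 0.01 gave 22, without Adar and Sp100 (11.1%), and a mean of at least 100 with readjustment gave 23 of 40 (20.3%). The number higher was 2 under each of these (9.69%, 11.3% and 18.7% of all genes). Requiring a log2 fold change of at least 0.5 gave 20 lower and 0 higher, and at least 1 gave 4 lower and 0 higher, since the 2 higher genes lie under 0.5 (5.31% and 1.24% of all genes were higher). The ISRE core was found for 8 genes when matches after the start site were left out and in 11 with the outermost start site. No paired analysis was possible because the deposited comparison has no values per library and the deposited estimates per library are by transcript, with no table used here that pairs transcripts with genes. For the same reason a refit with edgeR or DESeq2, other filters on counts and leaving out each library were not run, so whether 1 library decides a call was not tested. Alternatives for ATAC-seq peaks were not run. In the Multiome fragments, windows of 250 bases gave 1 lower and 2 higher of 27 genes (2.6% and 13.9% of all genes), windows of 1000 bases 1 and 1 of 29 (6.3% and 7.64%), and a minimum of 200 fragments 0 and 1 of 14 (0.408% and 10.9%). These other ISRE and Multiome settings, including the minimum of 3000 fragments per barcode, were chosen after seeing the data.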

Other observations

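Genes that flank the 41 interferon-stimulated genes were read in the authors' deposited table as a description of their neighbourhoods. Of 69 flanking genes outside the list, 12 were lower (17.4%), 15 were higher (21.7%) and 42 did not pass, with a median log2 fold change of -0.01. These shares lie near those of all genes tested, 15.4% lower and 15.3% higher. Agrn, beside Isg15, was lower (-0.94, SE 0.07, adjusted p = 7.79e-37 by DESeq2 per the authors' deposited table). Rec8, beside Irf9, was higher by 2.39 (SE 0.22, adjusted p = 9.7e-26 by DESeq2 per that table), and Ripk4, beside the Mx genes, by 1.77 (SE 0.22, adjusted p = 4.31e-14). These 3 genes were chosen after their values were seen.

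NF-kB shares activating signals with the interferon pathway. Of 18 of its targets, 7 were lower (38.9%, against 15.4% of all genes tested) and 3 were higher (16.7%, against 15.3%) in the authors' deposited table, with a median log2 fold change of -0.08. The chemokines Ccl7 and Ccl2 were at -1.62 and -1.59 (DESeq2 adjusted p = 2.54e-58 and 6.91e-41), and the adhesion molecule Vcam1 at -0.60 (8.67e-31). Icam1, Tnfaip3 and Relb were higher by 0.71, 0.50 and 0.38.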
